A study of Mus musculus with 17 samples.

Results

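The genes described here are those of the insulin-like growth factor system that were listed by symbol: the ligands Igf1 and Igf2, the receptors Igf1r and Igf2r, and the binding protein genes Igfbp2, Igfbp3, Igfbp4, Igfbp5, Igfbp6 and Igfbp7. All 10 were found by Ensembl ID among the 37576 genes of the deposited tables. The RNA came from embryonic fibroblasts (MEFs) of C57bl/6 mouse embryos (stage E13.5) that were +/+, +/- or -/- for Usp28, which encodes a deubiquitinase. Every group had been immortalized with the retrovirus pRetroSuper-shp19ARF, which carries a hairpin against the tumour suppressor p19ARF. The immortalized set held 3 libraries for each of +/+, +/- and -/-, with no added transgene. In the Ras set, which held 2 libraries in each of 4 groups, the cells also carried HRasG12V (an oncogenic form of HRas, from pBabe) together with pWZL-GFP in +/+, +/- and -/- cells, or with pWZL-USP28 in a further group of +/+ cells. The sources used here do not say whether the libraries of a group came from separate embryos or cultures, or whether the +/+ cells with USP28 and with GFP came from 1 parent culture, so p-values speak only for these libraries. The deposited p-values were closely rebuilt from 1 dispersion common to all genes of a comparison. They therefore do not measure how a single gene varied between libraries.

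IGF1 and IGF2 are secreted growth factors that act through the tyrosine kinase receptor IGF1R, which feeds the PI3K-Akt and Ras-MAPK pathways. IGF2R, the cation-independent mannose 6-phosphate receptor, takes up IGF2 for breakdown and carries lysosomal enzymes. The IGF-binding proteins hold the ligands outside the cell, can limit or prolong their action, and are cut by dedicated proteases. Fibroblasts are a well known source of these proteins, and Igf2 and Igf2r are imprinted genes in the mouse.

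Levels are given in RPM (reads of a gene scaled to a depth of 1000000) summed over the libraries of a group, rebuilt from the deposited comparisons. Values of single libraries were not used here. Depth per group was 11.4 to 13.95 M reads (M, 1000000), so 1 read was worth 0.0717 to 0.0880 RPM. Folds are log2 of a group over +/+, and each standard error (SE) is implied by the dispersion common to all genes of a comparison and by the read counts, so it does not measure how that gene varied between libraries. A gene was tested where its level, averaged over both groups, reached 1 RPM, and is called changed where its Benjamini-Hochberg adjusted p over all genes tested was under 0.05. Levels of the immortalized and Ras sets come from tables normalized apart and were not tested against each other.

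Usp28 RNA stayed detectable in every group. It measured 16.5, 9.96 and 13.3 RPM in immortalized +/+, +/- and -/- cells, and 26.5, 18.6, 14.8 and 26.4 RPM in Ras +/+, +/-, -/- and USP28 cells. It was called in Ras -/- (log2 fold -0.83, SE 0.24, adjusted p = 0.00397) and in no other comparison, so RNA does not check the genotype labels, and directions rest on them. Of 8 fibroblast markers, 7 to 8 had reads in each group. Thy1 was nearly absent from every Ras group. It was at 0 in Ras +/- and Ras USP28 cells, 0.0878 RPM in Ras +/+ and 0.502 RPM in Ras -/- cells. In the immortalized groups Thy1 stood at 177 to 289 RPM. Summed fibroblast markers ran from 28116 to 36846 RPM in the immortalized groups and from 7572 to 15310.5 RPM in the Ras groups. The 2 sets were normalized apart, and this difference was not tested. Mesothelial markers summed to 1759 RPM in immortalized +/- and 2698 RPM in Ras +/- cells, against 7.10 to 552 RPM in the other 5 groups. Their defining genes Upk3b and Wt1 stood at 677 and 124 RPM in Ras +/- against at most 0.717 and 0.502 RPM in the other Ras groups. Msln, on the same list, went the other way in the Ras set: it stood at 209 RPM in +/- against 425 RPM in +/+ and 466 RPM in USP28 cells, and made most of the marker sum of the latter groups. Xist, expressed from the inactive X, and the Y-linked gene Eif2s3y also divided the groups: Eif2s3y was at 0 RPM in immortalized +/- and Ras +/+ cells and at 22.4 RPM in Ras -/- cells, where Xist was at 0.215 RPM against 336 RPM in Ras +/+. Immortalized +/+ and -/- cells had both Eif2s3y (18.6 and 14.9 RPM) and Xist (89.7 and 126 RPM), and immortalized +/- cells had 296 RPM of Xist. In Ras +/- cells Eif2s3y was at 0.151 RPM and Xist at 25.5 RPM. The part of the mesothelial genes and of the sex-linked genes in the differences below was not tested.

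Members were called in each of the 4 comparisons of a mutant genotype with +/+. In immortalized cells, -/- had more Igf2 and less Igf1, Igfbp2, Igfbp3 and Igfbp5 than +/+, and +/- had more Igf1, Igfbp6 and Igfbp7 and less Igfbp5. In Ras cells, +/+ had almost no Igf1 and Igfbp2 RNA and little Igfbp4, while -/- and +/- cells had 58.5-fold and 225-fold more Igfbp4. Igfbp3 and Igfbp5 had no read in any Ras group. Both receptors were present in all 7 groups, between 63.0 and 344 RPM.

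**Figure D1:**
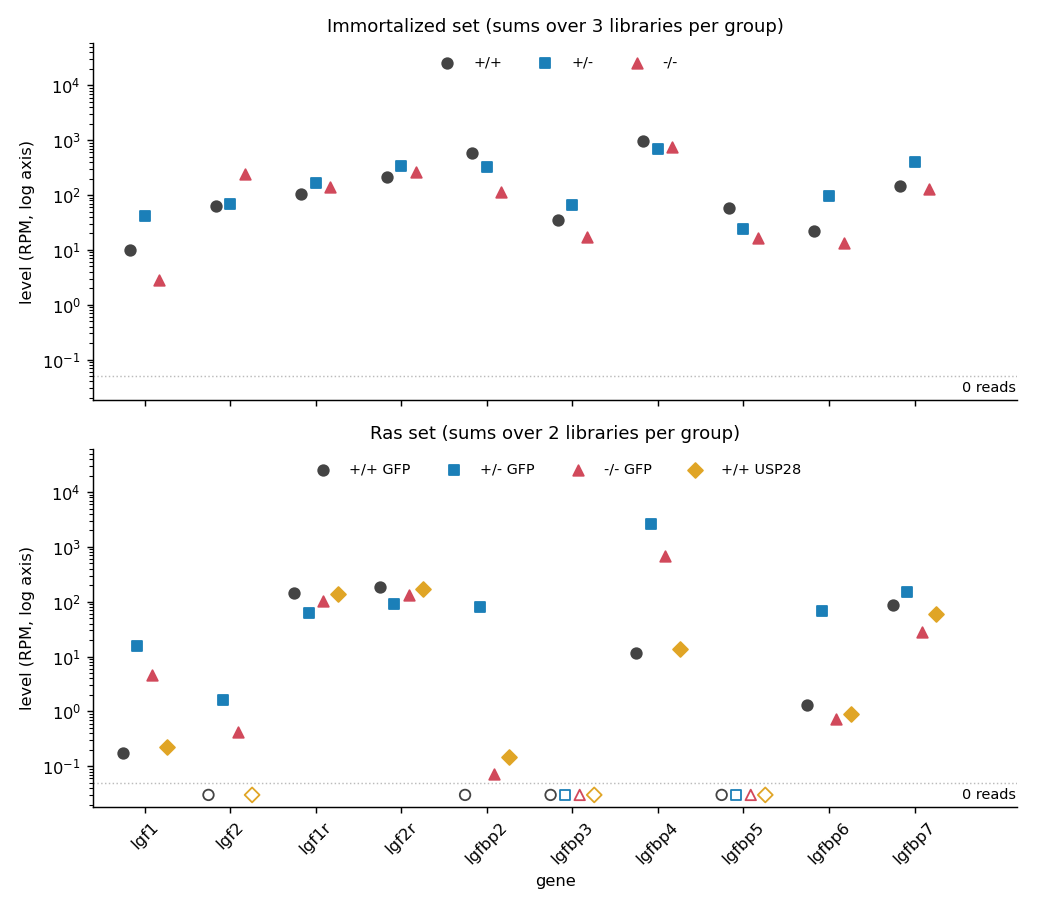
Level of each of the 10 genes in each group, in RPM on a log axis, with 1 point per group summed over its libraries. Open symbols under the dotted line are groups with 0 reads. Igfbp3 and Igfbp5 have no read in the 4 Ras groups, and Igfbp4 runs from 11.7 RPM in Ras +/+ to 2630 RPM in Ras +/-.

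The ligands differed from each other in their pattern. Igf1 (ENSMUSG00000020053, chromosome 10, 87858265 to 87937042, plus strand, GRCm38) encodes the growth factor whose blood form comes mostly from liver but which fibroblasts also make. Its level was 10.0 RPM in immortalized +/+, 41.9 RPM in +/- and 2.80 RPM in -/- cells. The heterozygous cells were thus the highest and the -/- cells the lowest. Against +/+, Igf1 rose 4.21-fold in +/- (log2 fold 2.07, SE 0.40, adjusted p = 2.23e-05) and fell 3.57-fold in -/- (log2 fold -1.84, SE 0.38, adjusted p = 6.77e-05). Between -/- and +/-, compared by the levels of these 2 groups, the log2 difference was -3.88 (SE 0.52, adjusted p = 2.45e-11).

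In the Ras set Igf1 was near the detection limit in +/+ cells. It stood at 0.175 RPM (2 reads) in +/+, 15.5 RPM in +/-, 4.66 RPM in -/- and 0.223 RPM (3 reads) in USP28 cells. The +/+ groups with either vector were low, and both mutant genotypes were high. The log2 fold was 4.73 in -/- (95% counting interval 2.82 to 7.80, adjusted p = 1.14e-11) and 6.46 in +/- (95% counting interval 4.59 to 9.52, adjusted p = 6.04e-31). Igf1 passed the minimum level in the Ras set only through the mutant groups. In -/- cells the gene was therefore lower than +/+ without Ras and higher than +/+ with it, and the Ras effect minus the immortalized effect was 6.24 (SE 1.03, adjusted p = 3.08e-08). Igf1 was lower in Ras -/- than in Ras +/- (log2 difference -1.73, SE 0.35, adjusted p = 1.38e-05), and lower in USP28 than in -/- cells (-4.17, SE 0.84, adjusted p = 1.08e-05). Igf1os, an antisense gene that overlaps Igf1, measured 1.71 to 5.45 RPM over the 7 groups, and without strand its reads cannot be told apart from those of Igf1 in their overlap.

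Igf2 (ENSMUSG00000048583, chromosome 7, 142650766 to 142666816, minus strand, GRCm38) encodes the fetal growth factor, which is expressed from the paternal allele. In the immortalized set it stood at 62.3 RPM in +/+, 69.8 RPM in +/- and 237 RPM in -/- cells. The -/- cells stood apart, 3.81-fold above +/+ (log2 fold 1.93, SE 0.25, adjusted p = 7.3e-11), whereas +/- lay close to +/+ (0.17, SE 0.38, adjusted p = 1). The -/- cells were also above +/- (log2 difference 1.76, SE 0.45, adjusted p = 0.00377), a call that ended with the dispersion doubled (adjusted p = 0.165). Igf2 was the only member called higher in immortalized -/- cells.

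Igf2 RNA was nearly absent from the Ras set. It was at 0 reads in +/+ and USP28 cells, which allows levels of up to 0.264 and 0.223 RPM, and stood at 1.59 RPM (21 reads) in +/- and 0.430 RPM (6 reads) in -/- cells. These levels fell short of the minimum mean for the comparisons with +/+, where +/- was at least 6.01-fold higher. The -/- level was below the +/- level (log2 difference -1.80, SE 0.71, adjusted p = 0.0448), a call lost without the minimum level (adjusted p = 0.0887) and with the dispersion doubled (adjusted p = 0.101). H19, the noncoding RNA made from the maternal allele next to Igf2, stood at 288 RPM in immortalized +/+, 202 RPM in +/- and 487 RPM in -/- cells (-/- over +/+: log2 fold 0.75, SE 0.25, adjusted p = 0.0581). In the Ras groups it was at most 0.985 RPM. H19 is named as the partner of Igf2 and after its values were seen. The antisense gene Igf2os, which overlaps Igf2, stood at 0.244 RPM in immortalized +/+ and 2.22 RPM in -/- cells. The protein-coding gene Gm49394 and the microRNA gene Mir483 overlap Igf2 on its own strand, so some of its reads may belong to them.

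Against +/+, the receptors were called in Ras +/- cells only, where both were lower. Igf1r (ENSMUSG00000005533, chromosome 7, 67952827 to 68233668, plus strand, GRCm38), the signalling receptor, measured 106, 166 and 141 RPM in immortalized +/+, +/- and -/- cells. Neither mutant genotype was called against +/+, with a log2 fold of 0.64 in +/- (SE 0.38, adjusted p = 0.527) and of 0.41 in -/- (SE 0.25, adjusted p = 0.50). Among Ras cells it stood at 145 RPM in +/+, 63.0 RPM in +/-, 104 RPM in -/- and 138 RPM in USP28 cells. The +/- cells were the lowest, with a fall of 2.30-fold against +/+ (log2 fold -1.20, SE 0.21, adjusted p = 2.28e-07). The -/- cells did not pass (-0.48, SE 0.21, adjusted p = 0.0773).

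Igf2r (ENSMUSG00000023830, chromosome 17, 12682406 to 12769664, minus strand, GRCm38), the clearance receptor for IGF2, had the same order of levels. It measured 212, 344 and 263 RPM in immortalized +/+, +/- and -/- cells, with no call against +/+ (adjusted p = 0.429 for +/- and 0.660 for -/-). In Ras cells it stood at 186 RPM in +/+, 92.1 RPM in +/-, 130 RPM in -/- and 170 RPM in USP28 cells. It fell 2.02-fold in +/- (log2 fold -1.01, SE 0.21, adjusted p = 1.39e-05), and -/- did not pass (-0.51, SE 0.21, adjusted p = 0.0560). Airn, the paternally expressed antisense RNA across Igf2r, measured 68.3 to 119 RPM over the 7 groups, and reads in the overlap cannot be assigned by strand. For both receptors the effect of +/- was lower in the Ras set than in the immortalized set, by -1.84 for Igf1r (SE 0.44, adjusted p = 0.000443) and -1.71 for Igf2r (SE 0.43, adjusted p = 0.00126).

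Igfbp4 was the binding protein gene called higher in both Ras genotypes. Igfbp4 (ENSMUSG00000017493, chromosome 11, 99041244 to 99054392, plus strand, GRCm38) encodes a protein that binds both ligands and is the classic substrate of the protease PAPP-A. In the immortalized set its level was even: 958 RPM in +/+, 686 RPM in +/- and 752 RPM in -/- cells, with a log2 fold of -0.48 in +/- (SE 0.38, adjusted p = 0.789) and of -0.35 in -/- (SE 0.25, adjusted p = 0.593). With Ras it stood at 11.7 RPM in +/+, 2630 RPM in +/-, 685 RPM in -/- and 13.9 RPM in USP28 cells. The groups fell far apart, with +/+ cells low under either vector and both mutant genotypes high. Igfbp4 rose 225-fold in +/- (log2 fold 7.81, SE 0.24, adjusted p = 2.85e-161) and 58.5-fold in -/- (5.87, SE 0.24, adjusted p = 2.27e-102). The -/- cells were below +/- (log2 difference -1.94, SE 0.29, adjusted p = 5.11e-10), and USP28 cells were below -/- (-5.62, SE 0.29, adjusted p = 3.2e-78). With USP28 against GFP in +/+ cells the log2 fold was 0.24 (SE 0.24, adjusted p = 1).

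The sequence upstream of Igfbp4 is shown because its RNA spans the widest range of the members that were tested in every comparison. It is chr11:99040994-99041243 on the plus strand of GRCm38.p6, from RefSeq, 5′ to 3′ and ending 1 base before the annotated start, with motif matches in capitals.
Igfbp4: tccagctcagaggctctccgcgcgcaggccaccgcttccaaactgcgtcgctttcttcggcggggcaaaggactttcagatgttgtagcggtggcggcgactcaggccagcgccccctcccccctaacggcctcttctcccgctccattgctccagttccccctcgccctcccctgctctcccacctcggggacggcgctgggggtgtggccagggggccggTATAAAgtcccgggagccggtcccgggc
The capitals mark TATAAA, 28 to 23 bases before the start. Besides TATAAA, the letters of a TATA box, both strands were searched for CCAAT, which gave the CCAAT box its name, for GGGCGG, the letters of an Sp1 box, for TGANTCA, the letters of an AP-1 site, and for CACGTG, an E-box. TATAAA occurs in 12.4% of the 32817 upstream windows of 250 bases in the RefSeq table, and the other 4 motifs were not matched in this window. A match describes the letters only, and binding was not measured.

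Igfbp2 and Igfbp5 are neighbours on chromosome 1 that are transcribed toward each other, and their 3′ ends lie 5457 bases apart. Igfbp2 (ENSMUSG00000039323, 72824503 to 72852474, plus strand, GRCm38) encodes a binding protein that prefers IGF2. It stood at 595 RPM in immortalized +/+, 322 RPM in +/- and 115 RPM in -/- cells. The fall to -/- was 5.17-fold (log2 fold -2.37, SE 0.25, adjusted p = 2.18e-16), while +/- did not pass against +/+ (-0.89, SE 0.38, adjusted p = 0.185). Between -/- and +/- the log2 difference was -1.48 (SE 0.45, adjusted p = 0.0256), a call that ended without the minimum level (adjusted p = 0.0565) and with the dispersion doubled (adjusted p = 0.408).

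In Ras cells Igfbp2 was found almost only in the heterozygotes. It was at 0 reads in +/+ (up to 0.264 RPM), 81.3 RPM (1075 reads) in +/-, 0.0717 RPM (1 read) in -/- and 0.149 RPM (2 reads) in USP28 cells. The +/- cells were at least 308-fold above +/+ (adjusted p = 2.89e-82), against a floor of 3 reads summed over the +/+ group. Only +/- carried it past the minimum level. The 3 other Ras groups could not be told apart at this depth.

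Igfbp5 (ENSMUSG00000026185, 72857932 to 72874884, minus strand, GRCm38) encodes the binding protein with strong affinity for extracellular matrix. It stood at 57.1 RPM in immortalized +/+, 23.9 RPM in +/- and 16.6 RPM in -/- cells. Both mutant genotypes were below +/+. It fell 3.43-fold in -/- (log2 fold -1.78, SE 0.27, adjusted p = 5.17e-08) and 2.38-fold in +/- (-1.25, SE 0.39, adjusted p = 0.0214), the latter lost with the dispersion doubled (adjusted p = 0.318). The difference between -/- and +/- was -0.52 (SE 0.47, adjusted p = 1). Igfbp5 was the only member called lower in both mutant genotypes of the immortalized set, whose comparisons share their +/+ libraries.

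Igfbp3 (ENSMUSG00000020427, chromosome 11, 7206086 to 7213923, minus strand, GRCm38) encodes the main carrier of IGFs in serum. It stood at 34.6 RPM in immortalized +/+, 66.4 RPM in +/- and 17.2 RPM in -/- cells. The fall in -/- was 2.01-fold (log2 fold -1.01, SE 0.28, adjusted p = 0.0116), a call lost with the dispersion doubled (adjusted p = 0.238). In +/- it did not pass (0.94, SE 0.39, adjusted p = 0.150). The -/- cells were below +/- (log2 difference -1.94, SE 0.46, adjusted p = 0.00132), again lost with the dispersion doubled (adjusted p = 0.0972).

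Igfbp3 and Igfbp5 had 0 reads in all 4 Ras groups, which allows levels of up to 0.264, 0.227, 0.215 and 0.223 RPM in +/+, +/-, -/- and USP28 cells. Of 10200 genes with at least 10 RPM in each immortalized group, 10 (0.0980%) were at 0 in all Ras groups, and these 2 members were among them. The others were the imprinted genes Meg3 and Ndn, the chemokine gene Cxcl14, the thrombomodulin gene Thbd, Chst2, Arsi, Mageh1 and ENSMUSG00000048107. They were named after their values were seen. The upstream sequences of the neighbours Igfbp2 and Igfbp5, and of Igfbp3, are given because none of these genes had a read in Ras +/+ cells. They are chr1:72824230-72824479 (plus strand), chr1:72874885-72875115 (minus strand) and chr11:7213924-7214173 (minus strand) of GRCm38.p6, from RefSeq, 5′ to 3′, with matches to the same 5 motifs in capitals.
Igfbp2: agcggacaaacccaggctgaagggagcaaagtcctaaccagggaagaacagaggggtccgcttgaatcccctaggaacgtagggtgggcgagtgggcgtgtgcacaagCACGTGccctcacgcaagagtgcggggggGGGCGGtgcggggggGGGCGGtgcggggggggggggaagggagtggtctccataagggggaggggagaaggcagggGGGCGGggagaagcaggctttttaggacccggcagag
Igfbp5: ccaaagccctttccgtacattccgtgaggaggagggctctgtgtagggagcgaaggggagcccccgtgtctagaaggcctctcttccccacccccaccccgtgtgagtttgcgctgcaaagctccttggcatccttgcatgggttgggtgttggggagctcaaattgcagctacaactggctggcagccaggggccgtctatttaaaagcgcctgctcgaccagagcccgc
Igfbp3: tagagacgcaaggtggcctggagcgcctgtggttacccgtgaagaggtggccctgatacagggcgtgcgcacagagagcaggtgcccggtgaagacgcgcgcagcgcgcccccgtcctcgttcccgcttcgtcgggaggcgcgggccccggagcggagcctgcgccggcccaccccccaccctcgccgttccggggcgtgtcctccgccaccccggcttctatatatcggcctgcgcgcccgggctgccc
The capitals in Igfbp2 are CACGTG, found in 6.02% of all windows, and 3 copies of GGGCGG, found in 32.7%. None of the 5 motifs was matched in the Igfbp5 and Igfbp3 windows, which says only that these letters are not there. The dinucleotide CG occurred 14 times upstream of Igfbp2, 10 times upstream of Igfbp5, 32 times upstream of Igfbp3 and 22 times upstream of Igfbp4, against a median of 6 over all windows of 250 bases. Igf2, also at 0 reads in Ras +/+ cells, had 1 in its window. Igf1r, which had reads in every group and 145 RPM in Ras +/+ cells, had 42. Igf1, Igfbp6, Igfbp7 and Igf2r had 5, 7, 26 and 27, at 0.175, 1.31, 86.1 and 186 RPM in Ras +/+ cells. Whether the count goes with the level was not tested. Methylation and binding at these sites were not measured.

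Igfbp6 and Igfbp7 were both high in the heterozygotes. Igfbp6 (ENSMUSG00000023046, chromosome 15, 102144362 to 102149511, plus strand, GRCm38) encodes a binding protein with a strong preference for IGF2. It stood at 22.4 RPM in immortalized +/+, 96.0 RPM in +/- and 13.49 RPM in -/- cells. In +/- it rose 4.27-fold (log2 fold 2.09, SE 0.39, adjusted p = 8.98e-06), and -/- did not pass against +/+ (-0.73, SE 0.29, adjusted p = 0.158). In Ras cells the same order was wider: 1.31 RPM (15 reads) in +/+, 67.3 RPM in +/-, 0.717 RPM (10 reads) in -/- and 0.894 RPM (12 reads) in USP28 cells. Igfbp6 rose 51.2-fold in Ras +/- (log2 fold 5.68, SE 0.42, adjusted p = 2.68e-61). The -/- cells were below +/- without Ras (log2 difference -2.83, SE 0.47, adjusted p = 1.93e-07) and with it (-6.48, SE 0.53, adjusted p = 8.65e-32).

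Igfbp7 (ENSMUSG00000036256, chromosome 5, 77349240 to 77408041, minus strand, GRCm38) encodes a secreted protein related to the binding proteins that has low affinity for IGFs. It stood at 148 RPM in immortalized +/+, 397 RPM in +/- and 130 RPM in -/- cells, and 86.1 RPM in Ras +/+, 148 RPM in +/-, 27.8 RPM in -/- and 59.2 RPM in USP28 cells. The heterozygotes were the highest and the -/- cells the lowest in each set. It rose in immortalized +/- (log2 fold 1.42, SE 0.38, adjusted p = 0.00448, or 0.155 with the dispersion doubled) and in Ras +/- (0.78, SE 0.21, adjusted p = 0.00129). It fell 3.09-fold in Ras -/- (-1.63, SE 0.22, adjusted p = 1.63e-11), but did not pass in immortalized -/- (-0.19, SE 0.25, adjusted p = 0.851), and the effects of -/- differed between the sets by -1.44 (SE 0.34, adjusted p = 0.000235). Igfbp7 was higher in USP28 than in -/- cells (log2 difference 1.09, SE 0.29, adjusted p = 0.00157, or 0.0532 with the dispersion doubled). Polr2b and an antisense gene overlap Igfbp7 on the other strand, so some of its reads may belong to them.

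In Ras +/- cells, which had the highest Igfbp2, Igfbp4 and Igfbp6 of the 4 Ras groups, the mesothelial markers also summed to 2698 RPM against 497 RPM in Ras +/+, and all 8 had reads. In immortalized +/- cells, where Igf1, Igfbp6 and Igfbp7 rose, they summed to 1759 RPM against 68.8 RPM in +/+. In Ras -/- cells, where Igfbp4 and Igf1 also rose, the same markers summed to 7.10 RPM, below Ras +/+. In bulk RNA, a change in the share of cells of a type and a change in RNA per cell cannot be told apart.

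**Figure D2:**
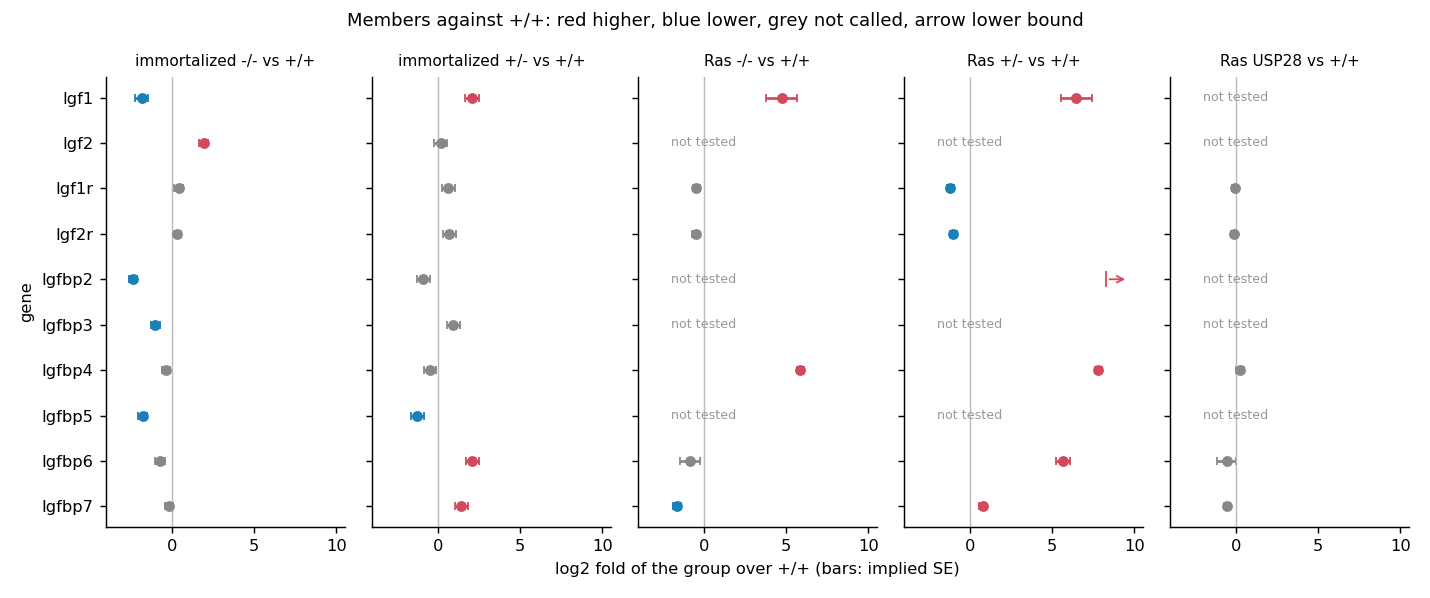
Log2 fold of each gene over +/+ in the 5 comparisons, with bars for the implied SE, coloured by call. The arrow for Igfbp2 in Ras +/- starts at its lower bound of 308-fold, and genes under the minimum mean level are written as not tested. All 7 members tested in Ras +/- were called, and none of the 5 tested with USP28.

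By comparison, 1 of 10 members was called higher and 4 lower in immortalized -/- cells, against 1.29% higher and 2.93% lower among the 16727 genes tested. The median log2 fold was -0.54 over the 10 members and 0.07 over all genes tested. In immortalized +/- cells 3 of 10 were called higher and 1 lower, against 5.04% and 3.21% of 17035 genes, with a median of 0.67 against -0.00. In Ras -/- cells 6 members reached the minimum level, 2 were called higher and 1 lower, where 15.2% of 15868 genes were called higher and 12.4% lower. In Ras +/- cells 7 members reached it, 5 were called higher and 2 lower, where 17.5% of 15950 genes were called higher and 16.7% lower. Since Igf1 and Igfbp2 were tested in Ras cells only because a mutant group was high, these Ras counts cannot be read against the background. These comparisons share their +/+ libraries within a set.

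With USP28, 5 members were tested and 0 called by the adjusted deposited p, against 0.0907% of 15444 genes called higher and 0.997% lower. The authors' adjusted p also called 0, and 1 member, Igfbp7, had an unadjusted p under 0.05 in the authors' deposited table (59.2 against 86.0 RPM, log2 fold -0.54, SE 0.19, p = 0.00532, adjusted p = 0.328). For Igf1r, Igf2r, Igfbp4 and Igfbp6 the log2 folds with USP28 ran from -0.56 to 0.24. A lack of calls does not show that the levels were equal.

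Between -/- and +/-, 6 of 10 members were called in the immortalized set, beside 4.75% of 17007 genes, and 2 of 10 with the dispersion doubled, which left Igf1 and Igfbp6. Igf2 was higher in -/-, and Igf1, Igfbp2, Igfbp3, Igfbp6 and Igfbp7 were lower. In the Ras set, 6 of the 8 members tested were called, all lower in -/- (Igf1, Igf2, Igfbp2, Igfbp4, Igfbp6 and Igfbp7), beside 24.9% of 16107 genes. Igf2, Igfbp2 and Igfbp6 were tested there only because +/- was high, so this count cannot be read against the background. Between USP28 and -/- cells, 3 of 5 were called, beside 19.4% of 15816 genes. The effect of -/- differed between the sets for 4 of 6 members, beside 20.9% of 15068 genes, and the effect of +/- for 6 of 7, beside 13.6% of 15211 genes. These counts include Igf1, and for the effect of +/- also Igfbp2, which were tested in Ras cells only because a mutant group was high, so they too cannot be read against the background.

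**Figure D3:**
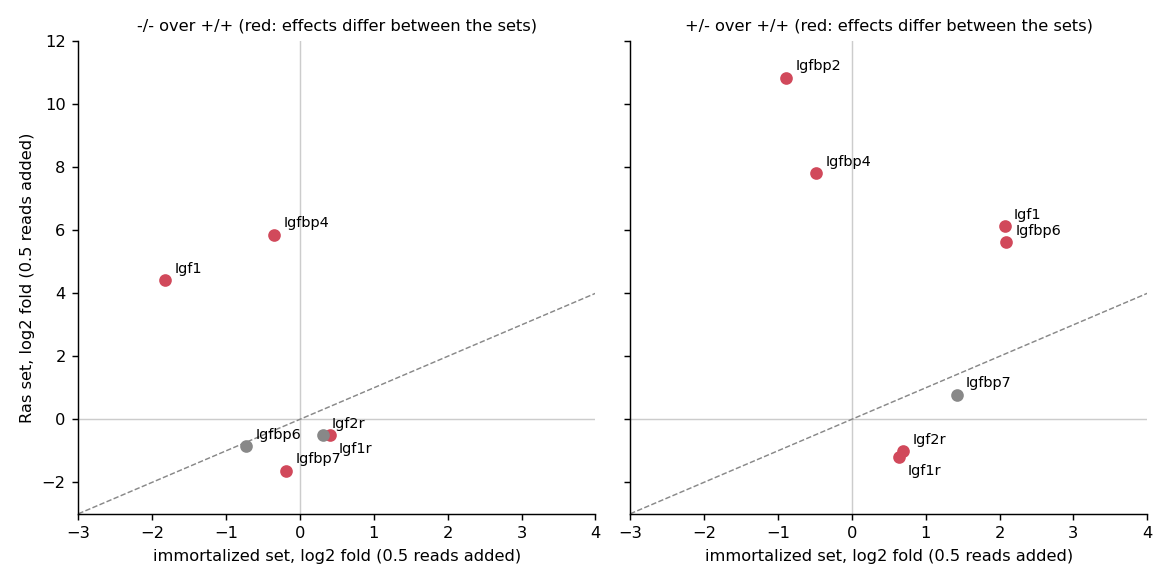
Log2 fold over +/+ in the Ras set (vertical) against the immortalized set (horizontal) for members tested in both, with 0.5 reads added to each group, for -/- at left and +/- at right. The dashed line marks equal effects, and red points are members whose effects differed between the sets. Igfbp4 and Igf1 lie far above the line in both panels, and both receptors lie below it for +/-.

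Per kilobase of annotated exon, the make-up of binding protein RNA changed with the group. In immortalized +/+ cells Igfbp2 made 50.0% of the summed RPM per kb of the 6 binding protein genes, Igfbp4 30.0% and Igfbp7 15.0%. In immortalized -/- cells Igfbp4 led with 48.1%, and in +/- cells Igfbp7 led with 39.3%. In Ras +/+ and USP28 cells Igfbp7 alone made 94.5% and 91.7%, whereas Igfbp4 made 73.7% in Ras +/- and 88.0% in Ras -/- cells. The summed level was 815, 835 and 399 RPM per kb in immortalized +/+, +/- and -/- cells, and 75.4, 909, 198 and 53.4 RPM per kb in Ras +/+, +/-, -/- and USP28 cells. These shares are sums over the libraries of a group with no spread and were not tested.

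**Figure D4:**
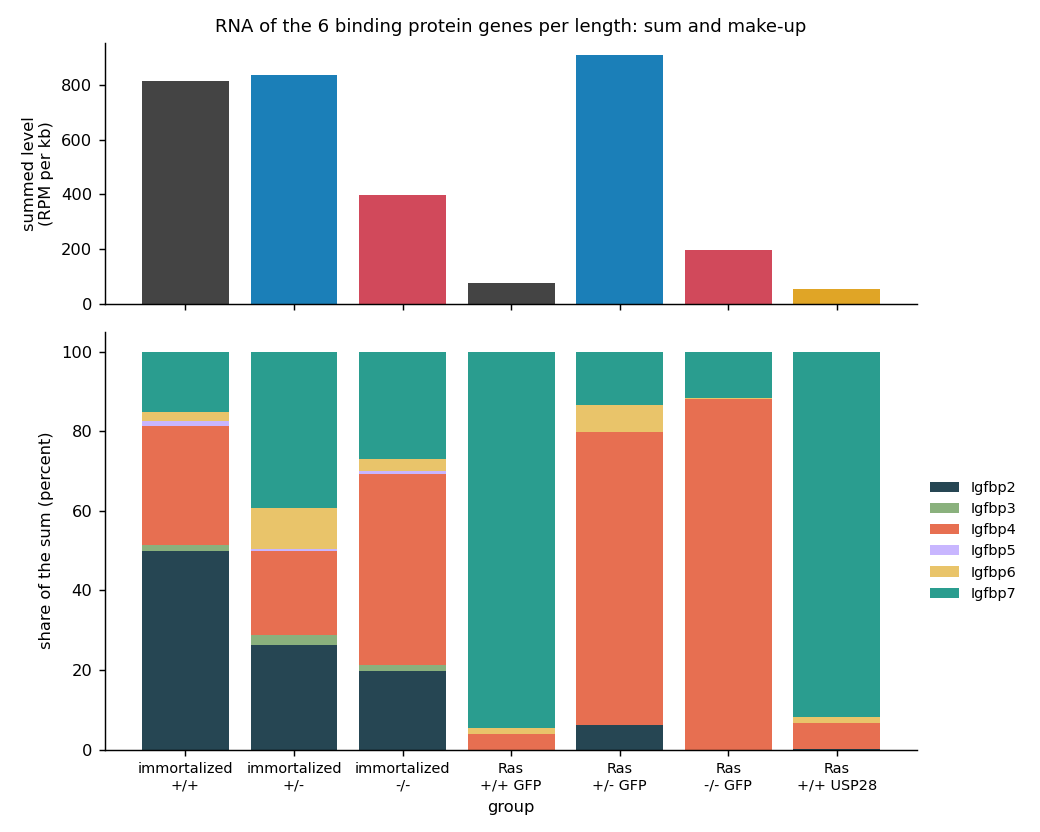
Summed level of the 6 binding protein genes in RPM per kb of exon (top bars) and the percent share of each gene in that sum (bottom bars) for the 7 groups. Igfbp7 makes over 90% in both Ras +/+ groups, and Igfbp4 leads in Ras +/- and -/- cells.

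Proteases that cut the binding proteins, and their inhibitors, were described as a list of 7 genes. Of these, 0 were called higher and 2 lower in immortalized -/-, 1 higher and 2 lower in immortalized +/-, 0 higher and 4 lower of 4 tested in Ras -/-, 2 higher and 2 lower of 6 tested in Ras +/-, and 0 higher and 1 lower of 4 tested with USP28. Over all genes tested, 1.29% were called higher and 2.93% lower in immortalized -/-, and 5.04% and 3.21% in immortalized +/-. The shares were 15.2% and 12.4% in Ras -/-, 17.5% and 16.7% in Ras +/-, and 0.0907% and 0.997% with USP28. Stc1, Htra3 and Pappa2 were under the minimum level in Ras -/-, and Stc1 and Htra3 reached it in Ras +/- only because +/- was high, so the Ras counts cannot be read against these shares. Pappa, which encodes the protease PAPP-A, stood at 58.0 RPM in immortalized +/+ and 167 RPM in +/- cells (log2 fold 1.53, SE 0.38, adjusted p = 0.00190). Among Ras cells it stood at 5.13 RPM in +/+ and fell to 0.303 RPM in +/- (-4.08, SE 0.73, adjusted p = 2.38e-11), 1.94 RPM in -/- (-1.41, SE 0.39, adjusted p = 0.00328) and 2.08 RPM with USP28 (-1.30, SE 0.38, adjusted p = 0.0487, or 0.106 in the authors' deposited table). Stc2, a stanniocalcin that inhibits PAPP-A, fell from 53.2 to 0.453 RPM in Ras +/- (-6.87, SE 0.60) and to 29.2 RPM in Ras -/- (-0.87, SE 0.23). Its relative Stc1 went from 0 to 4.83 RPM in Ras +/-, at least 18.3-fold higher (adjusted p = 6.27e-13), and to 1.94 RPM in Ras -/-, at least 7.33-fold higher but under the minimum mean level and not tested. Igfbp4 and Pappa thus moved in opposite directions in both Ras genotypes.

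Among 8 other binding and related genes, 0 were called higher and 2 lower of 4 tested in immortalized -/-, 1 and 2 of 5 in +/-, 1 and 2 of 3 in Ras -/-, 1 and 3 of 4 in Ras +/-, and 0 of 3 with USP28 by the adjusted deposited p, where 0 had an unadjusted p under 0.05. Over all genes tested, 1.29% were called higher and 2.93% lower in immortalized -/-, and 5.04% and 3.21% in +/-. The shares were 15.2% and 12.4% in Ras -/-, 17.5% and 16.7% in Ras +/-, and 0.0907% and 0.997% with USP28. Nov (Ccn3), a matricellular gene of the CCN family, fell from 94.9 RPM in immortalized +/+ to 39.9 RPM in -/- (log2 fold -1.25, SE 0.26) and 34.9 RPM in +/- (-1.44, SE 0.39). In Ras cells it rose from 6.01 to 89.3 RPM in -/- (3.89, SE 0.27, adjusted p = 1.42e-44) and fell to 1.82 RPM in +/- (-1.73, SE 0.40). Kazald1, which carries an IGFBP-like domain, fell from 60.0 to 13.55 RPM in immortalized +/- (-2.15, SE 0.40) and to 30.8 RPM in -/- (-0.96, SE 0.26, adjusted p = 0.0117). In Ras +/- it was called in the other direction, from 0.705 to 3.25 RPM (2.20, SE 0.58, adjusted p = 0.000254). Esm1, which shares that domain, rose from 0.163 RPM (2 reads) to 2.13 RPM (27 reads) in immortalized +/- (3.71, 95% counting interval 1.75 to 6.86, adjusted p = 0.00165). Esm1 in immortalized +/- and Kazald1 in Ras +/- reached the minimum level only because +/- was high, so the counts there cannot be read against the shares.

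Calls in the signalling branch below the receptors lay near the share over all genes without Ras. Of 20 genes for the insulin receptor, its adaptors and the PI3K-Akt branch, 1 was higher and 0 lower in immortalized -/-, 0 and 1 in +/-, 5 and 5 in Ras -/-, 3 and 6 in Ras +/-, and 0 and 1 with USP28. Over all genes tested, the higher and lower shares were those given above, 1.29% and 2.93% in immortalized -/- and 5.04% and 3.21% in +/-. They were 15.2% and 12.4% in Ras -/-, 17.5% and 16.7% in Ras +/-, and 0.0907% and 0.997% with USP28. Median log2 folds ran from -0.24 in Ras +/- to 0.02 in immortalized -/-. Pik3r1, which encodes a regulatory subunit of PI3K, rose from 23.7 to 88.0 RPM in Ras +/- (log2 fold 1.89, SE 0.23) and to 38.6 RPM in Ras -/- (0.70, SE 0.23). Grb14, an adaptor that restrains insulin receptor signalling, fell from 48.0 RPM to 13.3 RPM in Ras +/- (-1.85, SE 0.24) and 17.9 RPM in Ras -/- (-1.42, SE 0.23). Foxo1, a transcription factor held in check by Akt, fell in immortalized +/- (-1.68, SE 0.39) and Ras +/- (-1.76, SE 0.25) and rose in Ras -/- (1.07, SE 0.22). The 1 gene called with USP28 was Grb10, an imprinted adaptor of the same receptors, named after its value was seen (194 to 87.4 RPM, -1.15, SE 0.19, adjusted p = 2.87e-07). Grb10 was also called lower in Ras +/- (70.1 RPM, -1.47, SE 0.21) and higher in Ras -/- (554 RPM, 1.51, SE 0.21).

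Of 8 genes around Igf2 and its RNA, 1 was higher and 0 lower of 7 tested in immortalized -/-, 0 of 7 in +/-, 2 and 1 of 6 in Ras -/-, 1 and 2 of 7 in Ras +/-, and 0 of 6 with USP28. For the counts of 0 by the adjusted deposited p, 1 gene in immortalized +/- and 0 with USP28 had an unadjusted p under 0.05. Over all genes tested, 1.29% were called higher and 2.93% lower in immortalized -/-, and 5.04% and 3.21% in +/-. The shares were 15.2% and 12.4% in Ras -/-, 17.5% and 16.7% in Ras +/-, and 0.0907% and 0.997% with USP28. Plagl1, an imprinted zinc finger gene that acts on a network of imprinted genes including Igf2, rose from 4.04 to 23.2 RPM in Ras -/- (log2 fold 2.52, SE 0.31) and went to 0 in Ras +/-, at least 17.8-fold lower (adjusted p = 6.05e-12). Igf2bp3, whose protein binds Igf2 mRNA, fell from 89.0 RPM to 39.1 RPM in Ras -/- (-1.19, SE 0.22) and 25.4 RPM in Ras +/- (-1.81, SE 0.22). Lin28b, an RNA-binding protein gene, rose from 0.354 to 2.27 RPM in Ras +/- (2.68, SE 0.76), which alone brought it to the minimum level. The Ras +/- count of this list therefore cannot be read against the shares. The gene called higher in immortalized -/-, where Igf2 also rose, was Hmga2, a chromatin protein gene (147 to 360 RPM, 1.29, SE 0.25, adjusted p = 4.27e-05), named after its value was seen.

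Of 5 genes of the mannose 6-phosphate route that IGF2R serves, 0 were called in immortalized -/-, in immortalized +/- and with USP28 by the adjusted deposited p (0, 1 and 0 at an unadjusted p under 0.05), 2 were higher in Ras -/-, and 1 was higher and 2 lower in Ras +/-. Over all genes tested, 1.29% were called higher and 2.93% lower in immortalized -/-, and 5.04% and 3.21% in +/-. The shares were 15.2% and 12.4% in Ras -/-, 17.5% and 16.7% in Ras +/-, and 0.0907% and 0.997% with USP28. Gnptab, which builds the mannose 6-phosphate tag, rose from 69.0 to 221 RPM in Ras +/- (log2 fold 1.68, SE 0.21) and to 110 RPM in Ras -/- (0.68, SE 0.22). M6pr, the cation-dependent receptor, fell from 128 to 71.5 RPM in Ras +/- (-0.84, SE 0.21), in the direction of Igf2r there. Ctsd, a lysosomal protease gene that the route delivers, rose from 457 to 800 RPM in Ras -/- (0.81, SE 0.21) and fell to 278 RPM in Ras +/- (-0.72, SE 0.21).

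**Figure D5:**
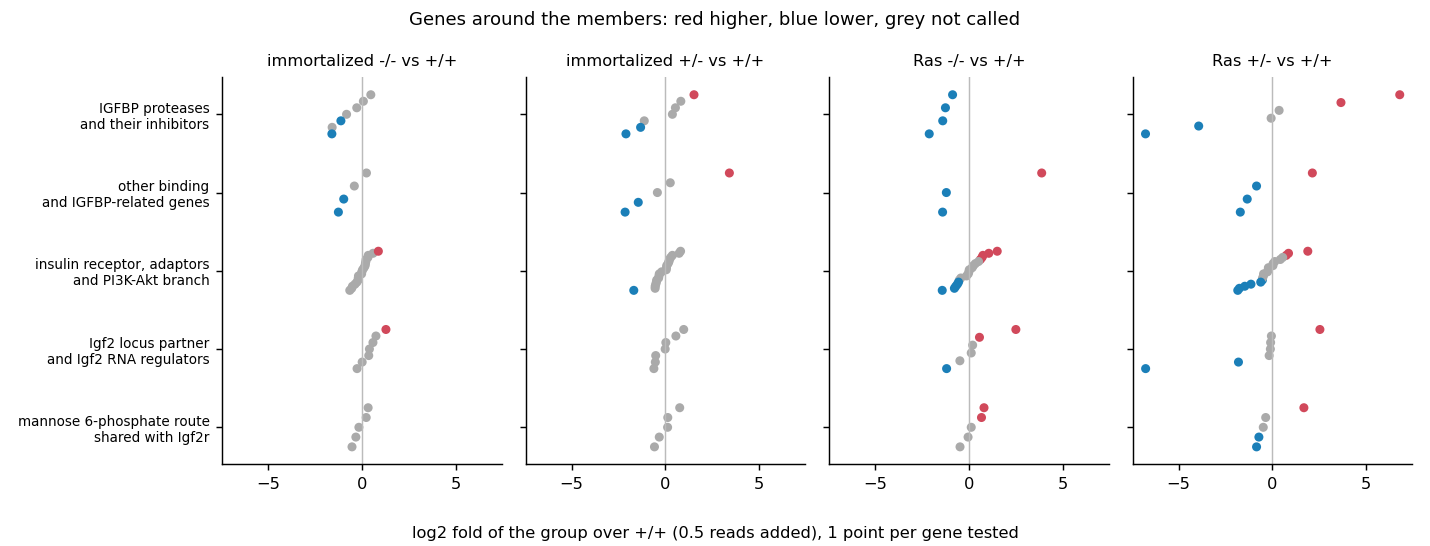
Log2 fold over +/+ (0.5 reads added) of each tested gene of the 5 lists around the members, in the 4 comparisons with mutant genotypes, 1 point per gene, coloured by call. The immortalized panels hold few coloured points, and the Ras panels show calls in both directions in most lists.

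For the members called in at least 3 of the 5 comparisons with +/+, the genes with the nearest pattern were found by Euclidean distance over the 5 log2 folds, among 14494 genes tested in all 5, with 0.5 reads added. Igf1 itself was under the minimum level in the comparison with USP28. For Igf1 they were Spon2 (spondin 2, distance 1.56), the chemokine gene Cxcl12 (2.55) and Syn3 (2.63). Spon2 had log2 folds of -1.89 and 1.73 in immortalized -/- and +/-, and of 3.16 and 5.94 in Ras -/- and +/-. For Igfbp7 they were the Wnt receptor gene Fzd6 (0.67), the proteoglycan gene Vcan (0.79) and Procr (0.84). Vcan had log2 folds of -0.42, 1.52, -1.46 and 0.32 in the same order. The 5 folds come from 2 sets of libraries with shared +/+ groups, so they are not independent points.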

How the data were processed

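Poly(A) RNA of 17 libraries in 7 groups was sequenced. Per the submitters' processing notes, the authors used CASAVA and FastQC, Bowtie 0.12.8 on mm9, and edgeR. The deposited tables hold log2 concentrations and log2 ratios of +/+ over another group, per the file headers, and the authors' p-values for each comparison. Coordinates come from the GENCODE annotation of GRCm38, and upstream sequences of all 10 members from RefSeq (GRCm38.p6).

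The sign of the deposited log2 ratios was reversed so that a positive value means higher than +/+. Group levels were rebuilt from concentration and ratio, and depth from steps of 1 read: by group, 80.5% to 100% of the low values (under 20 reads) came out whole, within 0.1. A common dispersion was fitted to the deposited p of each comparison (coefficient of variation 12.5% to 32.0%; rebuilt and deposited z correlated at 0.998 to 1.00 over 2000 genes), and the method was tested on simulated data. The deposited p was adjusted over genes with a mean of at least 1 RPM, threshold 0.05. Contrasts between mutants, and of Ras minus immortalized effects, used an approximate Wald test with 0.5 reads added, and those between mutants gave each group the dispersions of both comparisons. A group at 0 was given a floor of 3 reads summed over the group, and groups of 1 to 3 reads a 95% counting interval. Such intervals and floors hold for counting error alone. The median log2 fold of all genes tested lay between -0.10 and 0.07.

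The members and lists were chosen with earlier results of these data known. The rule for names was all 10 members, Usp28, up to 3 called genes of each list with the largest fold (0.5 reads added), and the 3 nearest genes of members called in at least 3 comparisons. Markers of endothelial, blood, cartilage, muscle and neural cells were also examined, and summed to 4.16 to 19.6, 11.3 to 26.6, 4.25 to 323, 26.7 to 125 and 20.5 to 183 RPM. Alternatives were no minimum level, a minimum of 5 RPM, centring on the median, a doubled dispersion, 1 read added, and the authors' adjusted p.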

Additional observations from a re-analysis of the deposited data

Results flagged for a closer look

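The effect of a genotype against +/+ differed between the Ras set and the immortalized set for these members, by a test of the difference of the log2 folds (approximate Wald test, Benjamini-Hochberg adjusted over all genes tested). For -/-, the Ras effect minus the immortalized effect was 6.24 for Igf1 (SE 1.03, adjusted p = 3.08e-08), 6.21 for Igfbp4 (SE 0.35, adjusted p = 1.37e-68), -1.44 for Igfbp7 (SE 0.34, adjusted p = 0.000235) and -0.89 for Igf1r (SE 0.33, adjusted p = 0.0372). Igf1 had 2 reads in Ras +/+ and was tested in the Ras set only because the mutant groups were high, for both genotypes. The Igf1r call was lost without the minimum level (adjusted p = 0.0763), with centring on the median (-0.79, adjusted p = 0.0739) and with the dispersion doubled (adjusted p = 0.248).

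For +/-, the difference was 8.29 for Igfbp4 (SE 0.45, adjusted p = 7.69e-73), 4.08 for Igf1 (adjusted p = 0.00114) and 3.54 for Igfbp6 (SE 0.57, adjusted p = 3.67e-08). It was -1.84 for Igf1r (SE 0.44, adjusted p = 0.000443) and -1.71 for Igf2r (SE 0.43, adjusted p = 0.00126, or 0.0646 with the dispersion doubled). For Igfbp2 the fitted value was 11.74 with 0.5 reads added and 10.74 with 1 read added. It depends on the reads added and is no bound, because Igfbp2 had 0 reads in Ras +/+, and the gene was tested in the Ras set only because +/- was high.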

How the results depend on the processing

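No paired analysis was possible because the deposited tables hold comparisons of groups and no values of single libraries, and for the same reason no library could be left out. Over 343 values of 74 member results under the alternatives, 328 kept their direction and side of the threshold, 15 kept their direction but lost the call, and 0 changed direction. Of the losses, 11 came with the doubled dispersion, 3 without the minimum level and 1 with centring. With the dispersion doubled, called members fell from 4 to 2 in immortalized +/- (Igfbp5 and Igfbp7 lost) and from 6 to 2 between immortalized -/- and +/- (Igf2, Igfbp2, Igfbp3 and Igfbp7 lost). Over all genes, the same setting took calls from 705 to 299 in immortalized -/-, from 1406 to 823 in immortalized +/-, from 4381 to 2641 in Ras -/-, from 808 to 388 between immortalized -/- and +/-, from 4008 to 2468 between Ras -/- and +/-, and from 3061 to 1799 between USP28 and -/-. For differences between sets it took them from 3149 to 1710 for -/- and from 2073 to 1072 for +/-. Without the minimum level, and by the authors' adjusted p, 8 members were called in Ras +/- in place of 7, the added one being Igf2. One dispersion for all genes leaves out genes that vary more between cultures.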
